A study of Mus musculus with 4 samples.

Results

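The genes described here build the T cell receptor complex and carry its first signals. They are 36 genes chosen by name, and all 36 were found once each among the 54752 gene rows of the count table. They comprise 7 receptor chains, 3 co-receptor chains, 4 kinases, 6 adaptors, 4 surface receptors that tune the signal, 4 inhibitory regulators and 8 downstream effectors. RNA was sequenced from mouse aortic graft tissue taken 4 weeks after aorta transplantation, with 2 libraries in each of 2 groups. The series title calls the ALLO grafts abdominal aorta allografts in chronic rejection, and the labels leave the name ISO unexplained. No strain, donor, recipient, age or drug is named for either group. The labels do not say whether a group's libraries are separate animals. The p-values therefore rest on the spread between these libraries alone, which in ALLO may not be a spread between animals.

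On an alpha-beta T cell, the receptor alpha and beta chains recognise peptide held by an MHC molecule but have no signalling tail of their own. The CD3 gamma, delta and epsilon chains and the CD3 zeta chain supply those tails. Lck, brought in by CD4 or CD8, phosphorylates them, ZAP-70 docks on them and phosphorylates the adaptors LAT and SLP-76, and calcium, Ras and NF-kappaB signals follow. T cells entering a graft and recognising foreign MHC are a central part of transplant rejection.

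The libraries held 17532344 to 20194854 counts. ISO replicate 1 stood apart from the other 3, with 10647 Xist counts (an RNA of female cells) and 0 for the Y chromosome gene Ddx3y, against at most 8 and at least 2105 elsewhere. The 2 ISO libraries are thus not repeats of one tissue sample. The summed level of 6 smooth muscle markers, in CPM (normalised counts scaled for library depth and composition), was 27170 and 27449 in the ISO libraries and 1117 and 2312 in the ALLO libraries, lower in both ALLO libraries. All 36 genes of the receptor set passed the filter on low counts, but 19 of them only through the ALLO libraries, as did 1970 of all 16498 genes tested. A gene that enters only through one group is bound to be higher there, so counts over the set are given as description.

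In ALLO grafts 34 of the 36 genes rose and none fell, by edgeR's quasi-likelihood test at a Benjamini-Hochberg adjusted p of 0.05. Among all genes tested, 18.4% rose. The median log2 change of the 36 was 5.14, where a gene without ISO counts enters at its lower bound, and the median of all genes tested was 0.03. Both ALLO libraries lay above both ISO libraries for 35 of the 36, and for 37.1% of all genes tested. The 2 that did not pass were Plcg1 and Malt1. In bulk tissue a larger number of T cells and more of a transcript in each T cell cannot be told apart.

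**Figure D1:**
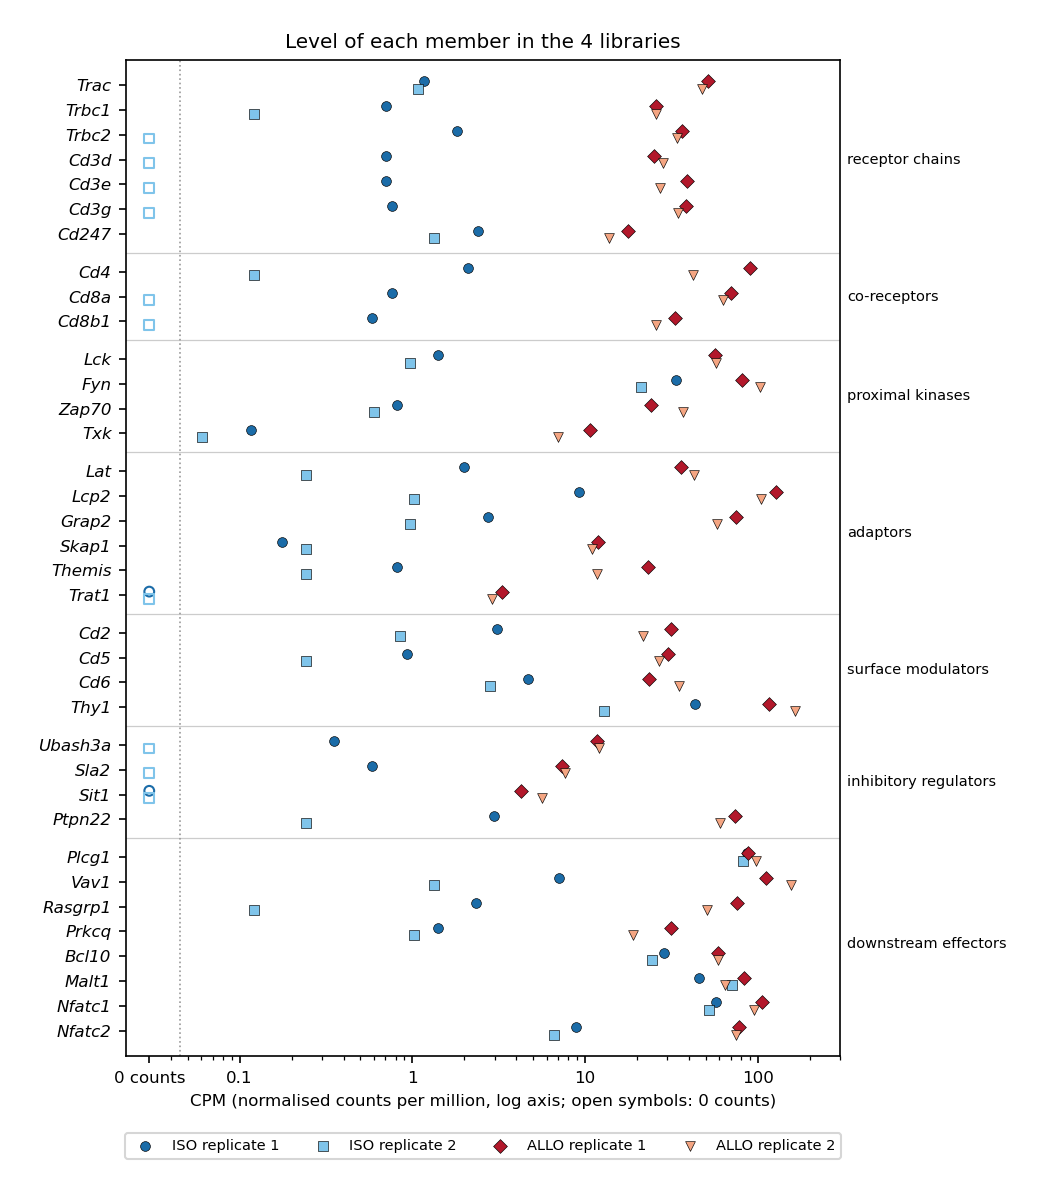
Level of each of the 36 genes in the 4 libraries, in CPM on a log axis, grouped by role, with open symbols at the left edge for 0 counts. The ALLO libraries lie to the right of the ISO libraries for every gene except Malt1, where ISO replicate 2 (71.0 CPM) lies above ALLO replicate 2 (64.7 CPM).

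The receptor chains were all higher in ALLO. Trac, the constant region of the alpha chain (ENSMUSG00000076928.5, chromosome 14, 54220521 to 54224206, mm10), stood at 1.17 and 1.09 CPM in ISO replicates 1 and 2 and at 51.8 and 47.5 CPM in ALLO. The 2 libraries of each group lay close together, and the log2 change was 5.45 ± 0.26 (SE, edgeR adjusted p = 0.00214). The beta chain constant regions lie 6.85 kb apart on chromosome 6. Trbc1 (41538218 to 41539881) was at 0.702 and 0.121 CPM in ISO and 25.9 and 25.8 CPM in ALLO, a log2 change of 5.94 ± 0.67 (edgeR adjusted p = 0.00521, 7.66 with ISO replicate 1 left out and 5.17 with ISO replicate 2 left out). Trbc2 (41546730 to 41548352) was at 1.81 and 0 CPM in ISO and 36.5 and 34.3 CPM in ALLO, a log2 change of 5.27 ± 1.19 (edgeR adjusted p = 0.0272). That is 38.5-fold, or 19.2-fold without ISO replicate 2 and at least 97.5-fold without ISO replicate 1. The Trbc2 call was lost with DESeq2's Wald test (adjusted p = 0.0949) and when either ALLO library was left out (edgeR adjusted p = 0.0732 without replicate 1 and 0.0600 without replicate 2).

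Reads cannot always be placed on one of the beta chain genes. Over 518 aligned coding bases of the GENCODE M21 transcripts, Trbc1 and Trbc2 differed at 23 and were 95.6% identical, with one identical run of 259 bases. The treatment of reads that map to both is not given in the sources used here, so the split between the 2 genes is uncertain. Most differences sit in the last 120 coding bases (399 to 518), which encode the membrane end of the chain and are printed 5′ to 3′ with differing bases in capitals, since 19 of the 23 differences fall here. Non-coding bases were not compared.
Trbc1: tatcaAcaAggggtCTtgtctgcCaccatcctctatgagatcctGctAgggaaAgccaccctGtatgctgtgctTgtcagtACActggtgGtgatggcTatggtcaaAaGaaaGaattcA
Trbc2: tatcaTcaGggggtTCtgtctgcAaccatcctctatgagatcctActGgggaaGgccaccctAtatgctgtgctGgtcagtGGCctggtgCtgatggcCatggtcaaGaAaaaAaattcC
Per exonic length, Trbc2 counts were 1.52 times those of Trbc1 in ALLO replicate 1 (95% counting interval 1.29 to 1.80) and 1.44 times in ALLO replicate 2 (1.23 to 1.68).

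The CD3 genes lie in one cluster on chromosome 9. Cd3g (44969572 to 44980431, minus strand) and Cd3d (44981786 to 44987339, plus strand) point away from each other across 1.35 kb, and Cd3e (44998740 to 45009627, minus strand) begins 11.4 kb beyond Cd3d. All 3 were at 0 counts in ISO replicate 2 and at 12, 12 and 13 counts for Cd3d, Cd3e and Cd3g in ISO replicate 1. Cd3d reached 25.0 and 28.1 CPM in ALLO replicates 1 and 2, Cd3e 39.1 and 27.1 CPM, and Cd3g 38.4 and 34.5 CPM. The 3 genes were therefore low in both ISO libraries and high in both ALLO libraries. Their folds were 73.6 for Cd3d, 91.7 for Cd3e and 93.3 for Cd3g (edgeR adjusted p = 0.0111, 0.0102 and 0.00982). Without ISO replicate 2 the folds were 37.0, 46.0 and 46.8, and without ISO replicate 1 they were at least 73.6, 90.4 and 100.2. Per exonic length, Cd3d was highest in ALLO (13.8 and 15.5 CPM per kb in replicates 1 and 2). Cd3g followed (11.7 and 10.5) and Cd3e was lowest (9.58 and 6.64), with no overlap between neighbours. This order rests on the lengths used, 1815 bases for Cd3d, 3269 for Cd3g and 4080 for Cd3e. In CPM, Cd3d was the highest of them in neither ALLO library.

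Cd247, which encodes the zeta chain with the longest signalling tail, was at 2.40 and 1.33 CPM in ISO and 17.8 and 13.8 CPM in ALLO. Its log2 change was 3.08 ± 0.42 (8.45-fold, edgeR adjusted p = 0.00765). Of its exonic bases, 60.3% are shared with other genes, among them Pou2f1, which runs the other way. Whether reads were counted by strand is not given in the sources used here, so its values are uncertain. Pou2f1 itself had 333 and 392 counts in ISO and 758 and 593 in ALLO (log2 change 0.61 ± 0.27, edgeR adjusted p = 0.146). The ratio of Cd247 to Cd3e per exonic length was 2.62 in ISO replicate 1 (95% counting interval 1.02 to 7.94) and 0.348 and 0.391 in ALLO. NK cells also use the zeta chain.

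The co-receptors bind the MHC molecule beside the receptor, CD4 with class II and CD8 with class I. Cd8a (ENSMUSG00000053977.13, chromosome 6, 71373427 to 71379173) was at 0.760 and 0 CPM in ISO and 70.2 and 63.2 CPM in ALLO. Its log2 change of 7.42 ± 0.94 was the highest fitted in the set among genes with counts in ISO (171-fold, edgeR adjusted p = 0.00652, 85.7-fold without ISO replicate 2, at least 184-fold without ISO replicate 1). Cd8b1, whose product pairs with CD8 alpha on conventional CD8 T cells, lies 35.9 kb from Cd8a and went from 0.585 and 0 CPM in ISO to 33.2 and 25.7 CPM in ALLO. It was 97.5-fold higher (edgeR adjusted p = 0.00883, 49.0-fold without ISO replicate 2, at least 80.7-fold without ISO replicate 1). Per exonic length the 2 CD8 genes were nearly even in ALLO, with Cd8a at 0.863 times Cd8b1 in replicate 1 (95% counting interval 0.755 to 0.988) and 1.00 times in replicate 2 (0.873 to 1.16).

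Cd4 (ENSMUSG00000023274.14, chromosome 6, 124864692 to 124888221) was at 2.10 and 0.121 CPM in ISO and 91.0 and 42.5 CPM in ALLO. It rose 59.3-fold (edgeR adjusted p = 0.0147), and its size depended on single libraries more than that of most members: 519.5-fold and 31.1-fold with ISO replicate 1 or 2 left out and 38.9-fold without ALLO replicate 1. The ALLO libraries differed from each other in Cd4 by 2.14 times, the widest gap between them in the set. The ratio of Cd4 to Cd8a per exonic length was 1.17 in ALLO replicate 1 (95% counting interval 1.06 to 1.29) and 0.607 in ALLO replicate 2 (0.539 to 0.683). The ratio of these transcripts thus differed between the ALLO libraries by more than counting error. Which cells held them was not tested, so it is not a ratio of T cell types. In ISO replicate 1 the ratio was 2.50 on 36 and 13 counts (0.974 to 7.35), and ISO replicate 2 had 2 counts of Cd4 and 0 of Cd8a. Intervals cover counting error only, and PCR duplicates could make them too narrow.

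Of the 4 kinases all rose. Lck (ENSMUSG00000000409.14, chromosome 4, 129548344 to 129573641), the kinase that starts the signal, was at 1.40 and 0.966 CPM in ISO and 56.5 and 57.6 CPM in ALLO (log2 change 5.58 ± 0.29, edgeR adjusted p = 0.00216). Zap70, which docks on the phosphorylated tails, went from 0.819 and 0.604 CPM to 24.1 and 36.9 CPM (5.41 ± 0.40, edgeR adjusted p = 0.00301). For both kinases the ISO libraries were close to each other, unlike for the CD3 genes. Txk, a Tec family kinase of T cells, had 3 counts in ISO in all and 363 in ALLO. The scaled ratio was 98.2, with a 95% counting interval of 22.6 to 1374 (edgeR adjusted p = 0.00395).

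Fyn, a Src family kinase that many cell types use beside T cells, behaved differently in level. It was already at 33.9 and 21.1 CPM in ISO and reached 81.7 and 103 CPM in ALLO, 3.37-fold (log2 change 1.75 ± 0.29, edgeR adjusted p = 0.0124). The ratio of Fyn to Lck per exonic length was 16.2 and 14.6 in the ISO libraries and 0.971 and 1.21 in the ALLO libraries. With 2 libraries in each group an exact two-sided permutation test of such a ratio cannot go below p = 0.333, so the ratios are given without a test. The ratio of Zap70 to Lck was 0.571 and 0.612 in ISO and 0.418 and 0.628 in ALLO, and its groups overlapped.

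All 6 adaptors rose. Lat, the membrane scaffold that ZAP-70 phosphorylates, went from 1.99 and 0.241 CPM to 36.1 and 43.0 CPM (35.1-fold, edgeR adjusted p = 0.0116, 158-fold and 19.6-fold with ISO replicate 1 or 2 left out). Lcp2, which encodes SLP-76 and is shared with myeloid cells and platelets, went from 9.30 and 1.03 CPM to 129 and 104 CPM (22.5-fold, edgeR adjusted p = 0.0234). Its fold was 112 and 12.3 with ISO replicate 1 or 2 left out, and its call was lost without ALLO replicate 1 (edgeR adjusted p = 0.0602). Grap2, the GADS adaptor that links SLP-76 to LAT, rose 35.4-fold (edgeR adjusted p = 0.00459, 67.5-fold without ISO replicate 1). Skap1, which couples the receptor to integrins, had 3 and 4 counts in ISO and 231 and 243 in ALLO (53.4-fold, edgeR adjusted p = 0.00319). Themis, a regulator of signal strength best known from thymocytes, rose 32.5-fold (edgeR adjusted p = 0.00788, 70.1-fold and 20.9-fold with ISO replicate 1 or 2 left out). Trat1, a receptor-associated transmembrane adaptor, had 0 counts in both ISO libraries and 64 in each ALLO library. It was at least 8.66-fold higher on a floor of 6 counts per library (edgeR adjusted p = 0.0101).

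**Figure D2:**
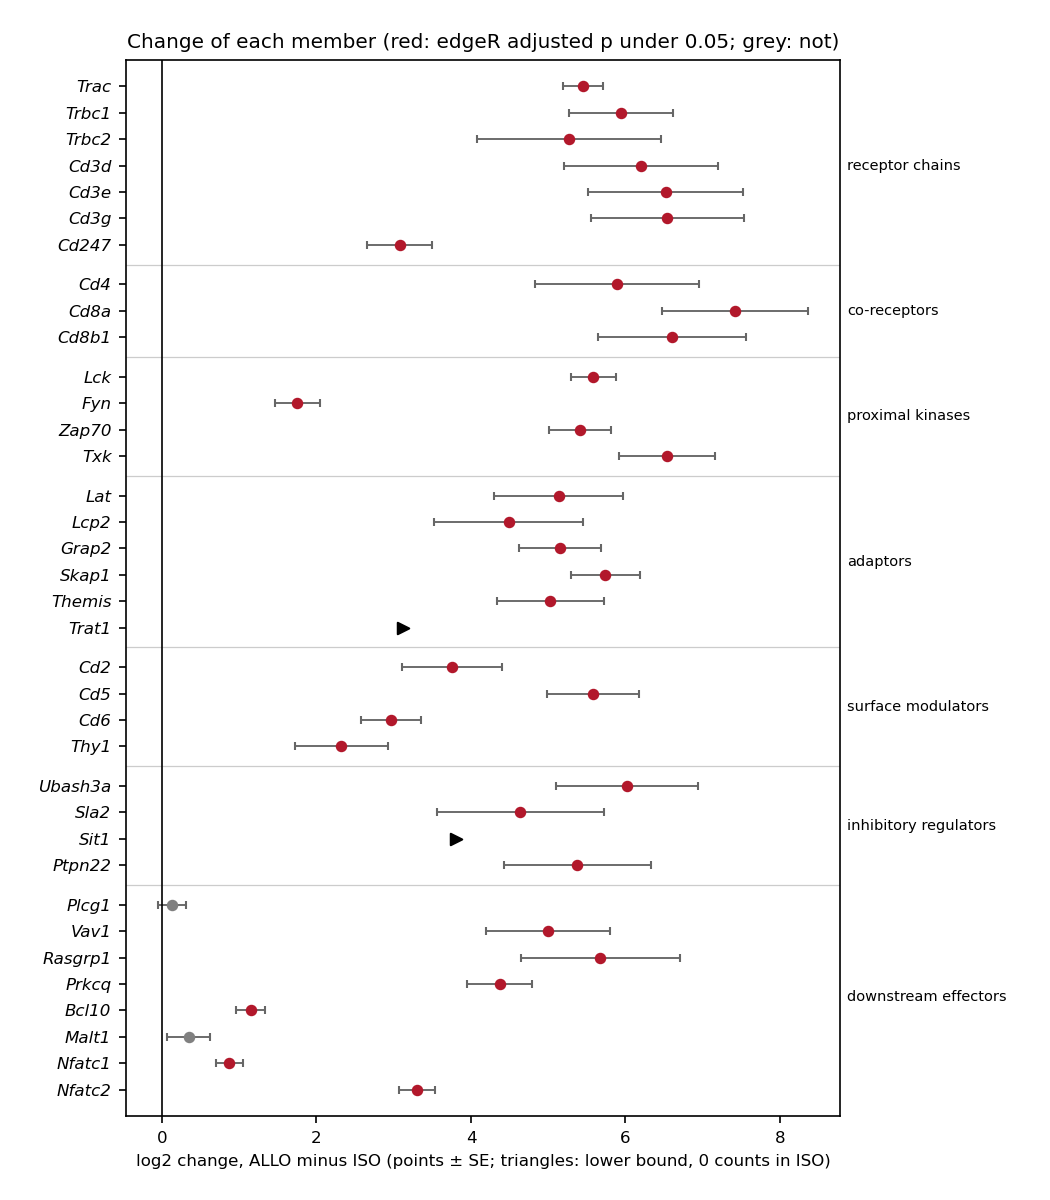
Log2 change of each gene, ALLO minus ISO, with its SE as bars, grouped by role; triangles are lower bounds for genes at 0 counts in both ISO libraries. Changes run from 0.13 (Plcg1, grey) to 7.42 (Cd8a), and the small ones belong to Fyn, Bcl10, Nfatc1, Malt1 and Plcg1.

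The surface receptors that tune the signal rose as well, all 4 of them. Cd5, an inhibitory receptor whose level follows receptor signalling, went from 0.936 and 0.241 CPM in ISO to 30.3 and 27.0 CPM in ALLO (47.9-fold, edgeR adjusted p = 0.00479, 114-fold and 29.9-fold with ISO replicate 1 or 2 left out). Its neighbour Cd6, 50.4 kb away on chromosome 19, went from 4.68 and 2.84 CPM to 23.5 and 35.3 CPM (7.81-fold, edgeR adjusted p = 0.00710). Cd2, an adhesion receptor that mouse B cells and NK cells also carry, went from 3.10 and 0.845 CPM to 31.7 and 21.8 CPM (13.5-fold, edgeR adjusted p = 0.0134, 31.1-fold and 8.48-fold with ISO replicate 1 or 2 left out). Thy1, a GPI-anchored protein of mouse T cells, fibroblasts and nerves, was at 43.2 and 12.9 CPM in ISO and 116 and 164 CPM in ALLO. Its 5.00-fold rise (edgeR adjusted p = 0.0376) was 10.8-fold without ISO replicate 1 and 3.20-fold without ISO replicate 2. The Thy1 call was lost without ALLO replicate 1 (edgeR adjusted p = 0.0692), without ALLO replicate 2 (0.102) and when tested against a 1.5-fold change (0.0578).

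The 4 inhibitory regulators rose with the activating genes. Ptpn22, a phosphatase that acts on Lck and ZAP-70 and is also found in other leukocytes, went from 2.98 and 0.241 CPM in ISO to 74.5 and 60.7 CPM in ALLO (41.6-fold, edgeR adjusted p = 0.0142, 270-fold and 22.3-fold with ISO replicate 1 or 2 left out). Ubash3a, a suppressor of T cell receptor signalling, had 6 counts in ISO, all in replicate 1, and 497 in ALLO. The scaled ratio was 67.2, with a 95% counting interval of 22.7 to 328 (edgeR adjusted p = 0.0100), with a fitted fold of 33.0 without ISO replicate 2 and at least 33.1 without ISO replicate 1. Sit1, a transmembrane adaptor that binds SHP2, had 0 counts in ISO and 83 and 124 in ALLO, at least 14.0-fold higher (edgeR adjusted p = 0.00735). Sla2, an adaptor that promotes receptor turnover, had 10 and 0 counts in ISO and 144 and 168 in ALLO (24.9-fold, edgeR adjusted p = 0.0290, 12.5-fold without ISO replicate 2, at least 20.8-fold without ISO replicate 1). The Sla2 call was lost when either ALLO library was left out (edgeR adjusted p = 0.0809 without replicate 1 and 0.0748 without replicate 2). Of its exonic bases 23.6% are shared with Rab5if on the opposite strand, which had 401 and 405 counts in ISO and 400 and 711 in ALLO.

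Of the 8 downstream effectors 6 rose, and they divided into genes that changed by large amounts and genes that changed little. Vav1, the exchange factor of blood cells that reshapes actin, went from 7.07 and 1.33 CPM in ISO to 112 and 157 CPM in ALLO (31.8-fold, edgeR adjusted p = 0.0112, 99.7-fold and 18.7-fold with ISO replicate 1 or 2 left out). Rasgrp1, which opens the Ras branch in T cells, went from 2.34 and 0.121 CPM to 76.3 and 50.7 CPM (51.1-fold, edgeR adjusted p = 0.0150, 495-fold and 26.7-fold with ISO replicate 1 or 2 left out). Prkcq, the protein kinase C isoform of the T cell synapse, went from 1.40 and 1.03 CPM to 31.7 and 18.9 CPM (20.7-fold, edgeR adjusted p = 0.00412). These 3 enzymes were low in ISO and high in both ALLO libraries.

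Nfatc2, the NFAT1 transcription factor, went from 8.89 and 6.58 CPM in ISO to 77.5 and 75.3 CPM in ALLO, a log2 change of 3.30 ± 0.23 (9.87-fold, edgeR adjusted p = 0.00283). Nfatc1, its relative NFAT2, was at 57.3 and 52.1 CPM in ISO and 106 and 94.7 CPM in ALLO, a log2 change of 0.87 ± 0.18 (edgeR adjusted p = 0.0207). The Nfatc1 call was lost without ISO replicate 1 (edgeR adjusted p = 0.0951), without ISO replicate 2 (0.166) and against a 1.5-fold change (0.0989). The ratio of Nfatc1 to Nfatc2 per exonic length was 9.18 and 11.3 in ISO and 1.94 and 1.79 in ALLO, so the groups did not overlap and ALLO tissue held the 2 NFAT transcripts at more similar levels.

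Bcl10 and Malt1 encode proteins that work together to activate NF-kappaB. Bcl10 was at 28.9 and 24.5 CPM in ISO and 58.9 and 59.3 CPM in ALLO, 2.21-fold higher (edgeR adjusted p = 0.0110), and did not pass with ISO replicate 2 left out (edgeR adjusted p = 0.0717). Malt1 was at 45.7 and 71.0 CPM in ISO and 83.5 and 64.7 CPM in ALLO, so its groups overlapped (log2 change 0.35 ± 0.28, edgeR adjusted p = 0.394). Plcg1, the phospholipase that makes the second messengers for calcium and Ras, was at 86.8 and 82.1 CPM in ISO and 87.7 and 97.2 CPM in ALLO (0.13 ± 0.18, edgeR adjusted p = 0.612). Its log2 change was under its SE. All of these are used by many cell types outside the T cell lineage.

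The level in ISO tissue set the members apart in the same way. The 7 genes at 5 CPM or more in both ISO libraries (Fyn, Thy1, Plcg1, Bcl10, Malt1, Nfatc1 and Nfatc2) had log2 changes of 0.13 to 3.30. The other 29 had changes of 2.97 to 7.42. Level and change share the ISO counts, so the split is a description and has no test.

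**Figure D3:**
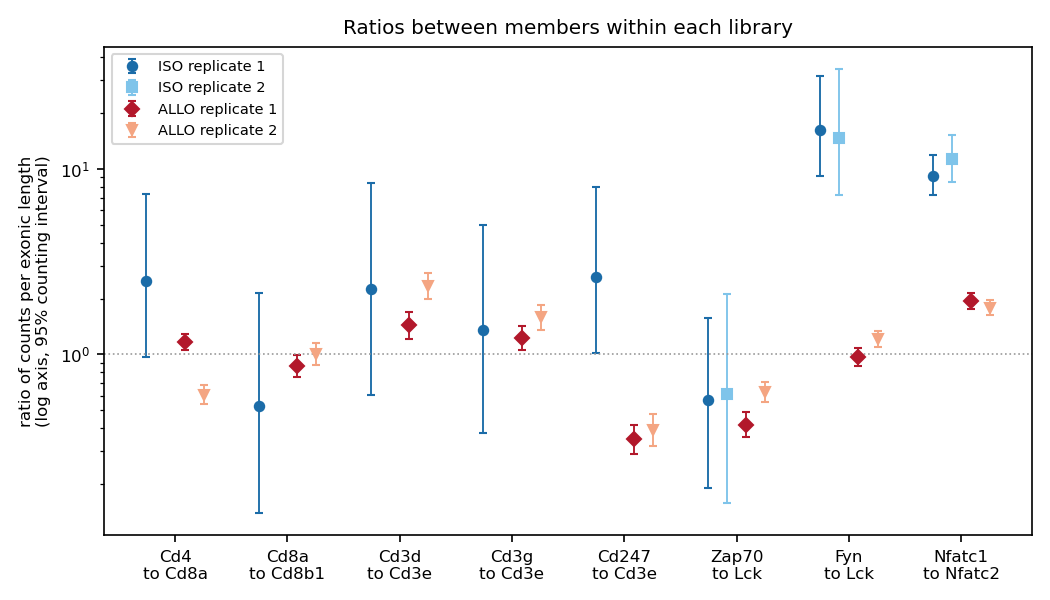
Ratio of counts per exonic length between pairs of members within each library, on a log axis, with 95% counting intervals; a library with 0 counts of either gene is left out. Fyn to Lck and Nfatc1 to Nfatc2 are lower in both ALLO libraries than in both ISO libraries, and Cd4 to Cd8a differs between the ALLO libraries (1.17 and 0.607).

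The ISO libraries were not alike for these genes. Of the 36, 32 had their higher ISO level in replicate 1, Skap1 and Malt1 had it in replicate 2, and Trat1 and Sit1 were at 0 in both. In 8 genes ISO replicate 2 had 0 counts where replicate 1 had 6 to 31. Over the 26 with counts in both, the median ratio of replicate 1 to replicate 2 was 1.87, with a range from 0.643 (Malt1) to 19.4 (Rasgrp1), and the median over all genes tested with a count in replicate 2 was 1.02. Trac, Lck and Zap70 did not follow the CD3 genes: in ISO replicate 2 they had 18, 16 and 10 counts, against 20, 24 and 14 in replicate 1. The ALLO libraries were closer to each other, with ratios of replicate 1 to replicate 2 from 0.652 (Zap70) to 2.14 (Cd4).

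Leaving out an ISO library moved many folds. The fold moved by over 1.5 times in 14 genes without ISO replicate 1 and in 19 without ISO replicate 2. It did so in 1 without ALLO replicate 1 and in 0 without ALLO replicate 2. Genes then at 0 counts in ISO are taken at their bound. That applies to the 8 genes with 0 counts in ISO replicate 2 only, so the size of their move without ISO replicate 1 is unknown. For Trbc2 the bound (at least 97.5 against a fold of 38.5) already lies over 1.5 times away. Ubash3a is among the 14 only because its bound (at least 33.1) lies below its fold of 65.1, which does not show a move. The 14 and the 19 are thus not like counts. Without ISO replicate 1 33 of the 36 were called higher, and without ISO replicate 2 32 were. Summed markers of several other leukocytes, but not of all, dropped from ISO replicate 1 to ISO replicate 2. B cell markers summed to 43.8 CPM in replicate 1 and 0.422 CPM in replicate 2, and neutrophil markers to 121 and 8.45. Dendritic cell markers summed to 11.6 and 3.44, macrophage markers to 408 and 255 and plasma cell markers to 292 and 199. Of the macrophage sums, Mertk gave 167 and 164, nearly even. The others differed more: Adgre1 37.8 and 8.09, Cd68 18.5 and 4.53, C1qa 107 and 40.0, Csf1r 73.2 and 36.3 and Fcgr1 4.44 and 2.60. Of the plasma cell sums, Xbp1 gave 198 and 146 and Sdc1 49.6 and 51.9, which hides the wider gaps of the others. Jchain gave 38.5 and 0.362, Mzb1 4.68 and 0.241 and Tnfrsf17 0.468 and 0. The sums of NK cell markers (1.29 and 1.45) and mast cell markers (8.60 and 9.42) did not drop, but their genes were mixed. Of the mast cell sums, Kit gave 3.16 and 7.66. Mcpt4 (3.27 and 0.724), Cpa3 (1.17 and 0.724), Cma1 (0.936 and 0.302) and Fcer1a (0.0585 and 0) were lower in replicate 2. Among NK cell markers, Klrd1 had 16 and 2 counts and Eomes 2 and 0. Klrb1c had 0 and 14 counts, Klra8 0 and 4, and Ncr1 4 in each. The part of these cells in the ISO difference of the 36 genes was not tested.

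**Figure D4:**
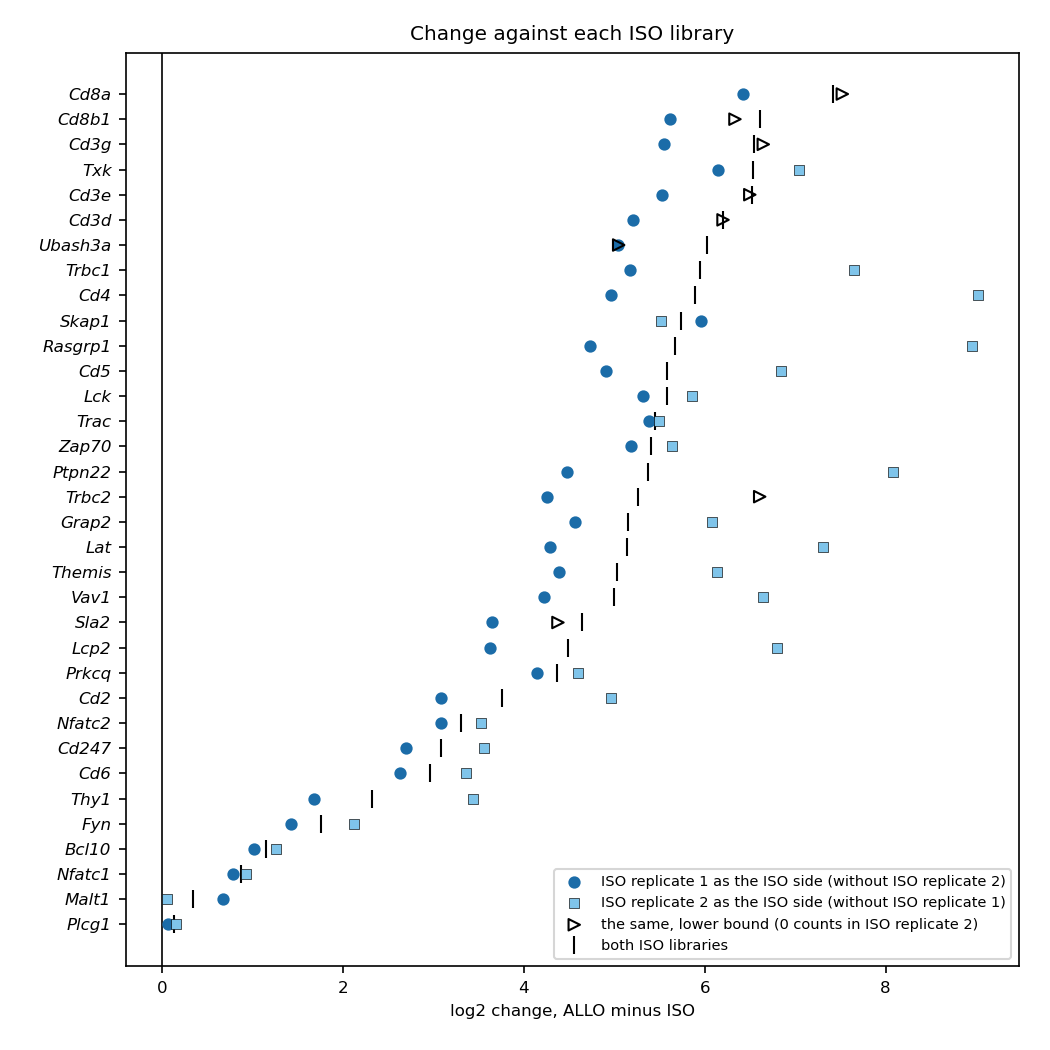
Log2 change of 34 genes (those with counts in ISO) against both ISO libraries (bars), against ISO replicate 1 alone (circles) and against ISO replicate 2 alone (squares, or triangles for lower bounds), ordered by the change against both. Changes against ISO replicate 2 are larger for most genes; of those with counts there, the widest gaps are Rasgrp1 (495-fold against 26.7-fold) and Cd4 (519.5-fold against 31.1-fold), while Trac, Nfatc1 and Plcg1 hardly move.

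In ALLO tissue the members spanned a wide range of levels per exonic length, from 0.664 CPM per kb for Trat1 to 53.1 for Trac. Trac (55.4 and 50.8 CPM per kb in replicates 1 and 2) and Trbc2 (52.7 and 49.5) could not be ordered, since their libraries overlap. Thy1, at 38.7 and 54.8, overlapped both. Vav1 (30.3 and 42.5) and Trbc1 (34.6 and 34.5) overlapped each other, and Lcp2 lay below them at 28.8 and 23.4. The kinase gene Txk, at 0.809 on average, and the adaptor gene Skap1, at 1.59 and 1.48 in replicates 1 and 2, were near the lower end. Levels of Trac and the Trbc genes refer to constant region exons only.

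Promoter sequence was looked at as a property that the choice of genes did not use. RefSeq windows of 300 bases on GRCm38.p6, the assembly of mm10, were on hand for 25 of the 36 genes (32 windows, from 250 bases before to 50 after a start). The 5 printed show the contrast in CpG dinucleotides between genes that changed by large amounts (Cd3d, Cd3g and Cd8a), one that did not pass (Plcg1) and one that is CpG-rich and still rose (Prkcq). Each is written 5′ to 3′ along its gene with CpG in capitals.
Cd3d (chr9:44981536-44981835, plus strand): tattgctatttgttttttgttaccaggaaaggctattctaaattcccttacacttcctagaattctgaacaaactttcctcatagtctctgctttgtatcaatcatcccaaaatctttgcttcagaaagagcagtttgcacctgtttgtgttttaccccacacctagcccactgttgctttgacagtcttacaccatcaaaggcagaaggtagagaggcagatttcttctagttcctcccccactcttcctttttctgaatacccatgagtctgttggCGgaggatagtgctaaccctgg
Cd3g (chr9:44980382-44980681, minus strand): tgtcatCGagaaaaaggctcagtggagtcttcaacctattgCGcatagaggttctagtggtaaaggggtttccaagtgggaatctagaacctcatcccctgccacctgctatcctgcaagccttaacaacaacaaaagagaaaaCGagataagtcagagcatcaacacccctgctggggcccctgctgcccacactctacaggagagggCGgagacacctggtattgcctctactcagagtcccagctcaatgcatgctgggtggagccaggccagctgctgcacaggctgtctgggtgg
Cd8a (chr6:71373177-71373476, plus strand): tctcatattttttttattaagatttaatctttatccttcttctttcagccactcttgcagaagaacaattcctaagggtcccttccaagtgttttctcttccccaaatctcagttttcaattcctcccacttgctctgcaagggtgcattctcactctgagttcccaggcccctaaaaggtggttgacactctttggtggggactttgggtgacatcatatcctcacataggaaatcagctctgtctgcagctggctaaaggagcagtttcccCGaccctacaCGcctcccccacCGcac
Plcg1 (chr2:160731060-160731359, plus strand): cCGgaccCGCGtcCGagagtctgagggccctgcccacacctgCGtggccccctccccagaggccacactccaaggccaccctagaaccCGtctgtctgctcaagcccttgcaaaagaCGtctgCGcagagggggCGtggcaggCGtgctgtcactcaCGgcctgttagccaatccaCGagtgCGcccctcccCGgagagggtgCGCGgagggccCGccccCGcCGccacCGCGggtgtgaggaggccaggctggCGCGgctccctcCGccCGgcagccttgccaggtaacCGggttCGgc
Prkcq (chr2:11172132-11172431, plus strand): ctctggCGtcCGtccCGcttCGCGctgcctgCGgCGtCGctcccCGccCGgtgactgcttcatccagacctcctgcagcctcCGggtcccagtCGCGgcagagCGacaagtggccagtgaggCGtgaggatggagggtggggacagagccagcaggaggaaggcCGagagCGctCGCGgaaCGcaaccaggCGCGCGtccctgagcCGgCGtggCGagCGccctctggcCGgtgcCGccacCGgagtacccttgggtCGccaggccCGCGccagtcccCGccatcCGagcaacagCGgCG
Cd3d held 1 CpG, Cd8a 3, Cd3g 4, Plcg1 27 and Prkcq 37, where the median over 32851 promoters is 7 and the quartiles are 3 and 20.

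Across the 23 genes with a window and with counts in ISO, CpG number and log2 change had a Pearson correlation of -0.63 and a Spearman correlation of -0.40. This is across genes measured in the same 4 libraries, which are not independent replicates, and is given as a description. The 6 genes with 20 or more CpG (Nfatc2, Bcl10, Rasgrp1, Plcg1, Fyn and Prkcq) had changes of 0.13 to 5.67, and the other 17, with 0 to 11 CpG, had changes of 3.08 to 7.42. Rasgrp1 (26 CpG, log2 change 5.67) lay within the body of the genes with few. Prkcq (37 CpG, 4.37) lay near their lower end, above Cd247 (3.08) and below Lcp2 (4.49). Of short motifs searched on both strands, each counted on its own so that matches may overlap, GGAA, the core of ETS factor sites, was in 29 of the 32 windows and in 96.0% of all windows. TGTGGT, the core of RUNX sites, was in 7 of the 32 and in 16.8% of all.

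**Figure D5:**
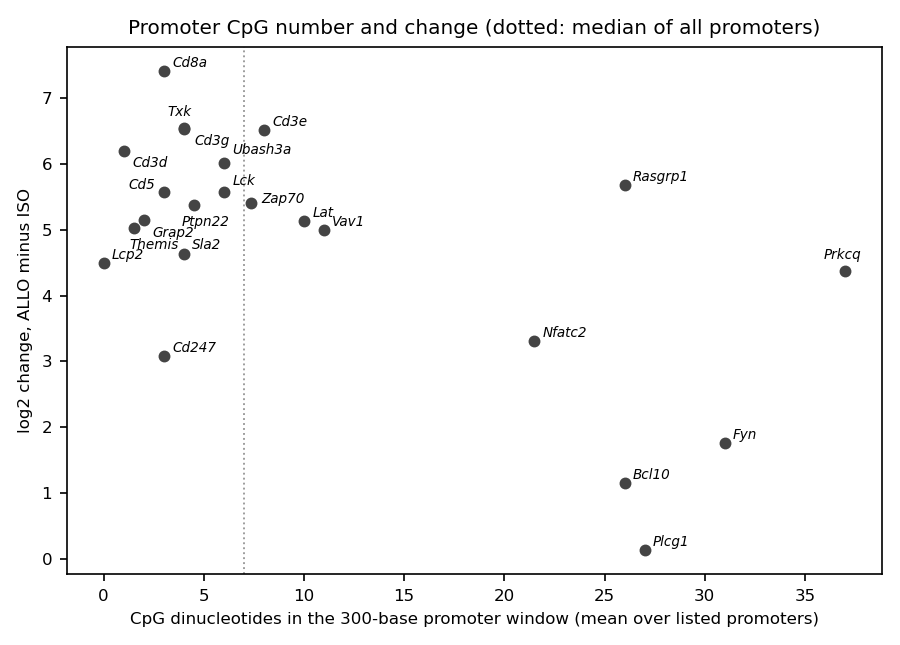
CpG dinucleotides in the 300-base promoter window (mean over listed promoters of a gene) against the log2 change, ALLO minus ISO, for 23 genes; the dotted line is the median of all promoters. Genes with few CpG lie between 3.08 and 7.42, and the 6 with 20 or more spread from 0.13 to 5.67.

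The rest of the pathway was followed with 55 further genes, all of which passed the filter, 5 of them only through ALLO. Of these, 34 rose, 1 fell and 20 did not pass, where 18.4% of all genes tested rose and 14.8% fell. Their median log2 change was 0.89. With ISO replicate 1 or 2 left out, 21 or 18 rose. Of 15 membrane-proximal partners of the receptor 12 rose and 3 did not pass. Sh2d2a, the T cell adaptor that binds Lck, had 8 and 10 counts in ISO and 769 and 843 in ALLO (71.8-fold, edgeR adjusted p = 0.00214). Was, the Wiskott-Aldrich actin regulator of blood cells, was 25.0-fold higher (edgeR adjusted p = 0.00217) and Fyb, a partner of SKAP1, 23.8-fold (edgeR adjusted p = 0.00378).

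Of 13 inhibitory partners 11 rose and 2 did not pass. Ubash3b, the relative of Ubash3a, was 13.6-fold higher (edgeR adjusted p = 0.00319), Pag1, which anchors the Lck inhibitor CSK, 4.66-fold (edgeR adjusted p = 0.00388) and the ubiquitin ligase gene Cblb 2.63-fold (edgeR adjusted p = 0.00579). In the NF-kappaB branch 6 of 10 rose. The NF-kappaB subunit gene Rel was 7.30-fold higher (edgeR adjusted p = 0.00319). Chuk, a kinase of the NF-kappaB inhibitor, changed by 0.85, and did not pass without ISO replicate 1 (edgeR adjusted p = 0.140), ISO replicate 2 (0.0980) or ALLO replicate 1 (0.0548).

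The calcium and NFAT branch was mixed, with 4 of 9 higher, 1 lower and 4 not passing. Itpr1, the calcium release channel that smooth muscle also uses, had 6871 and 7302 counts in ISO and 1934 and 2217 in ALLO, a log2 change of -2.07 ± 0.21 (edgeR adjusted p = 0.00431). Its relatives Itpr3 and Itpr2 changed by 1.32 and 1.08 (edgeR adjusted p = 0.0134 and 0.0209). Itpr3 lost its call without ISO replicate 2 (edgeR adjusted p = 0.0557), and Itpr2 without ISO replicate 1 (0.0512) or 2 (0.103). The calcineurin subunit gene Ppp3ca changed by 0.84 (edgeR adjusted p = 0.0255), a call lost without ISO replicate 1 (0.181), ISO replicate 2 (0.136) or ALLO replicate 1 (0.0506). In the Ras and MAPK branch 1 of 8 rose, Grb2, an adaptor used in most cells, by 1.09 (edgeR adjusted p = 0.0124, 0.0782 without ISO replicate 1 and 0.122 without ISO replicate 2).

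Markers of other cells that share members of the set moved in the same comparison. All 4 gamma-delta T cell genes rose, with a summed level of 0.702 and 0.241 CPM in ISO and 44.9 and 27.3 CPM in ALLO, and Tcrg-C1 and Tcrg-C4 were at 0 counts in ISO. These cells use the same CD3 chains with another receptor pair. The ratio of Trac to the delta chain gene Trdc per exonic length was 12.9 in ALLO replicate 1 (95% counting interval 10.8 to 15.6) and 25.2 in ALLO replicate 2 (20.0 to 32.0). All 5 NK cell markers rose (1.29 and 1.45 CPM summed in ISO, 46.1 and 41.7 in ALLO), as did 5 of 6 macrophage markers (408 and 255 CPM, then 2431 and 2511) and 5 of 6 dendritic cell markers (11.6 and 3.44 CPM, then 222 and 351). The 6 B cell markers (43.8 and 0.422 CPM summed in ISO, 304 and 138 in ALLO) had fitted folds of 6.69 to 17.9 with both ALLO libraries above both ISO libraries, but edgeR adjusted p of 0.0839 to 0.196. Of 5 plasma cell markers 3 rose (292 and 199 CPM, then 3490 and 1353). Of the neutrophil and mast cell markers tested, 1 of 4 rose in each list (Mpo and Kit) and 3 did not pass. Among all genes tested 18.4% rose. NK cells express Cd247, Zap70, Lat and Txk, myeloid cells Lcp2, Vav1 and Ptpn22, and fibroblasts Thy1. The part of these cells in the members' changes was not tested. Of 6 fibroblast markers 1 fell, none rose and 5 did not pass, with summed levels of 4341 and 4792 CPM in ISO and 8860 and 11988 CPM in ALLO. Col1a1 made up most of the ALLO sums (1974 and 3357 CPM in ISO, 5918 and 10462 in ALLO, edgeR adjusted p = 0.0702), and Pi16 was the one that fell, by 4.82-fold (edgeR adjusted p = 0.00858).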

How the data were processed

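The authors deposited raw counts per gene, 1 column per library, as made by featureCounts. The submitters' processing notes name mm10, R 4.0.3, DESeq2 1.30.0 and Subread 1.6.4. How reads were aligned, by strand or not, and how multi-mapped reads were handled was not given in the sources used here. GENCODE M21 named 54723 of 54752 IDs. Of genes with 1 to 20 counts, 68.0% to 74.6% had even counts, a pattern seen when both mates of a pair are counted, so the floor is 6 counts (3 pairs) per library and counting intervals (95%, exact) use halved counts. Replicates differed by more than sampling noise (chi-square over degrees of freedom 41.6 in ISO and 139 in ALLO).

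Genes were filtered with filterByExpr (minimum count 10), scaled by TMM and tested between groups with edgeR 4.0.16 (glmQLFit, no covariates), adjusting p by Benjamini-Hochberg over all 16498 genes. A level is CPM on TMM library sizes. Exonic length is that of all annotated exons of a gene together, not of the transcript expressed, so orders and ratios per length between genes depend on it. A fold is 2 to the power of the fitted log2 change. Alternatives used DESeq2 1.42.0 and limma 3.58.1. The members and gene lists were chosen with earlier results of these data known. Every member is named, and of the other pathway genes the 3 with the smallest adjusted p per branch and direction, except 1 that is not reported here. No protein sequences were used.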

Additional observations from a re-analysis of the deposited data

How the results depend on the processing

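Under 14 alternatives 30 to 34 of the 36 genes were called higher and 0 lower (edgeR at an unadjusted p under 0.05 gave 0 lower, as did DESeq2 and limma-voom by adjusted p). Of the 34 called, 28 kept the call in every alternative run, and Trbc2, Thy1, Nfatc1, Sla2, Lcp2 and Bcl10 lost it in 1 to 3. No member changed sign. With 1 library left out in turn, 30 to 33 were higher, the median log2 change ran from 4.34 to 5.75, and the further pathway genes called higher numbered 18 to 32, with 21 without ISO replicate 1 and 18 without ISO replicate 2. A group left with 1 library is assumed to vary like the other. Scaling by library size alone moved the median of all genes from 0.03 to 0.22 (log2) and gave 3546 higher and 1867 lower, against 3032 and 2437. With the replicate number as a block, 34 members and 28 further pathway genes were higher. The replicate numbers are not shown to pair the samples (correlation of same-numbered deviations 0.10), so that block is no stricter version of the test. At a depth of 17532344 counts, 10 members had 0 counts in ISO replicate 2.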
